A study of Mus musculus with 20 samples.

Results

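Macrophages of the dura mater with low MHC class II were compared with microglia of the brain by RNA sequencing in C57BL/6JRj mice. The samples were chosen by their titles: 4 libraries of MHC II-low dura macrophages (replicates 1 to 4) and 4 libraries of microglia (replicates 1, 3, 4 and 5), 8 of the 20 libraries of the series. The dura samples carry "int" for MHC II in their titles and "lo" in the cell type field, so the name MHC II-low is used for them. The other 12 libraries, of MHC II-high dura, choroid plexus and peritoneal macrophages, entered the statistical fit, and those of MHC II-high dura and choroid plexus serve as reference points for some genes. All groups are of the same strain, and the labels name no allele, agent, age or sex for any of them. How the cells were isolated, and whether the replicates of a group came from separate animals, is not given in the sources used here, so the p-values reflect differences among libraries that may be technical replicates.

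The dura is the outer membrane of the brain, and its macrophages belong to the border macrophages, which lie at the borders of the brain and are known for endocytic receptors such as the mannose receptor Mrc1. Border macrophages low in MHC class II are known to carry the hyaluronan receptor Lyve1. Microglia are the macrophages within the brain tissue. Their state is known to depend on TGF-beta signalling and on the transcription factor Sall1, and they carry the ADP receptor P2ry12 and the membrane protein Tmem119. Both kinds of macrophage depend on the growth factor receptor Csf1r.

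The MHC II-low dura libraries held 26312505 to 30398564 gene counts and the microglia libraries 15312617 to 17156227, with 6.61 to 8.24% and 12 to 13.1% of reads in no annotated feature. Levels are in CPM, counts per 1e+06 gene counts adjusted by TMM factors, and they are given for dura replicates 1 to 4 and microglia replicates 1, 3, 4 and 5, in that order. A level with ± is the mean and SD over the libraries of a group, and a log2 fold change with ± is given with its standard error. The markers given for the comparison went with the labels. Mrc1, Lyve1 and F13a1 together came to 8848 to 9719 CPM in the dura libraries and 16.4 to 21.8 CPM in microglia. P2ry12, Tmem119 and Sall1 together came to 400.1 to 537 CPM and 9547 to 13259.7 CPM. The sum of Mrc1, Lyve1 and F13a1 was also 5276 to 6614 CPM in MHC II-high dura and 2049 to 2468 CPM in choroid plexus macrophages. That sum sets border macrophages apart from microglia and does not by itself mark the MHC II-low population. Microglia replicate 3 stood apart. The 15 markers of choroid plexus epithelium, the tissue that secretes cerebrospinal fluid, summed to 72.1, 21706, 753 and 350.5 CPM in the microglia libraries and to 21 to 34.8 CPM in the dura libraries. Microglia replicate 5 stood apart in 16 interferon-response genes, which summed to 264, 222, 273 and 1619 CPM in microglia. Counts of called genes are therefore given with microglia replicate 3 and, where they differ, without it.

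MHC II-low dura macrophages and microglia differed in genes of many kinds, in both directions. Of 13960 genes tested in edgeR, 1932 were higher in MHC II-low dura (13.8%) and 1766 lower (12.7%), with a change of 2-fold or more and an adjusted p below 0.05, which is what "called", "rose" and "fell" mean below. In all, 3698 genes were called (26.5%), and a further 3425 passed the p threshold short of 2-fold. The libraries of the populations did not overlap for 6549 genes (46.9%), of which 3149 were called. A difference of at least 16-fold was fitted for 446 genes called higher and 532 called lower, and the median log2 fold change over all genes was 0.02. Without microglia replicate 3, 14156 genes were tested, 2038 rose (14.4%) and 1598 fell (11.3%). Of the calls, 1743 higher and 1452 lower were made in both fits, 189 and 314 were lost without that library, 287 and 134 were gained, and 0 changed direction. In simulated data, 100% of genes changed 4-fold or more and 26% of those changed exactly 2-fold were called. A call needs a fitted change of 2-fold or more, so the share at exactly 2-fold is held down by that threshold. The simulation drew all libraries from the microglial means, with the same spread for every gene, and changed only a few well-counted genes. Its shares therefore do not carry over to genes with few counts.

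**Figure D1:**
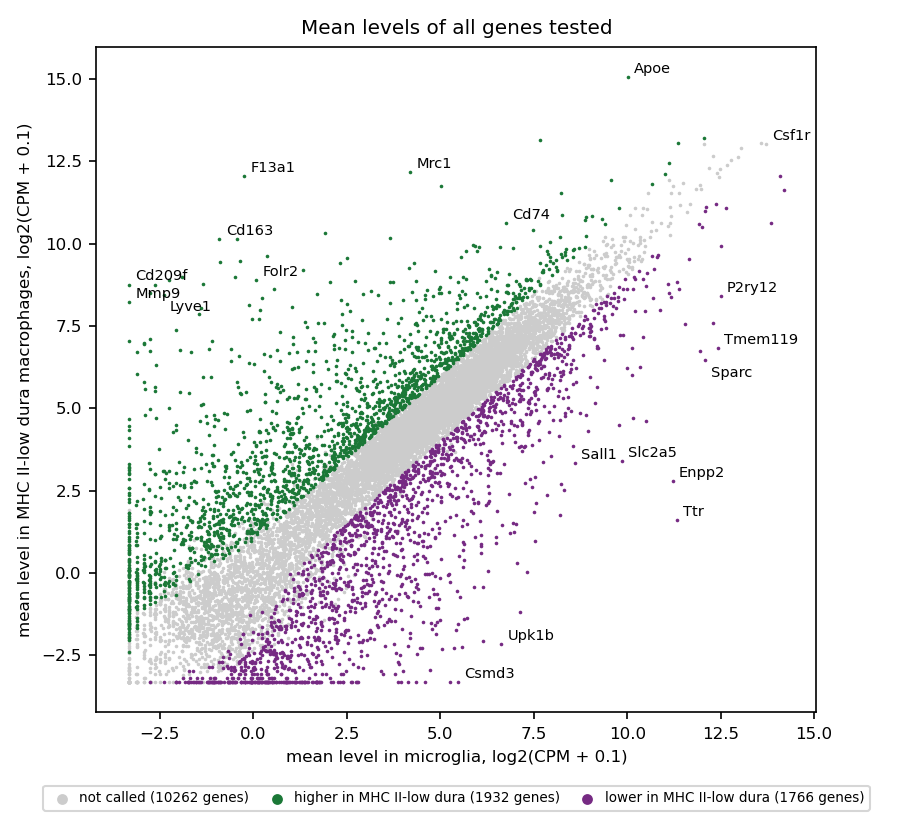
Mean level of each of the 13960 genes tested in microglia (x axis) and in MHC II-low dura macrophages (y axis), both as log2 of CPM plus 0.1, n = 4 libraries each. Green points are the 1932 genes called higher in MHC II-low dura, purple points the 1766 called lower and grey points the rest; Mrc1 and F13a1 lie far above the diagonal, Tmem119, Sall1 and Ttr far below it.

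Several named genes share exon bases with another gene in GENCODE M21, and the strand setting of the counting is not given in the sources used here, so part of their counts may belong to the neighbour. Reads labelled ambiguous were kept in a row of their own, so reads from shared bases may instead be missing from the counts of these genes. The shared part of the exons was 63.1% for Folr2, 68.7% for Itgam, 49.1% for Kcnj13, 46.9% for C2, 34.4% for Ctsd, 22.8% for H2-Oa, 21.8% for Tgm2, 20.9% for Adora3, 19% for Hspa1a, 15.1% for Csf1r and 10.7 to 18.3% for Fdft1, Cox5a, Egfl7, Il1a, Pla2g7 and Cd9. The Cd209, Clec4a, H2, Hspa1 and Ccl families hold similar copies, and how reads matching several copies were counted is not given in the sources used here. Levels of their single members are uncertain to that extent.

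Most border macrophage markers were nearly absent from microglia. All 20 of the border macrophage markers listed rose in MHC II-low dura, beside 13.8% of all genes tested, and the median log2 fold change of the list was 9.86 (9.69 without microglia replicate 3). The microglial level of a marker was 0 to 33.4% of its level in MHC II-low dura, with a median of 0.107%. In bulk RNA, a few cells of another type and a low level in every cell cannot be told apart, here and for the microglial genes in the dura libraries. The list was drawn up with knowledge of these populations, so its direction is no independent evidence.

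Mrc1 (chr2:14229392-14332057, plus strand, GRCm38), the mannose receptor that takes up glycoproteins, was at 4492, 4649, 4692 and 4620.3 CPM in MHC II-low dura and 19.8, 16.2, 19.6 and 17.1 CPM in microglia (log2 fold change 7.99 ± 0.23, edgeR adjusted p = 4.9e-16). The libraries of each population lay close together and the groups did not overlap. Lyve1 (chr7:110850607-110863239, minus strand), the hyaluronan receptor, was at 348, 357, 408 and 291 CPM in MHC II-low dura and 0.125, 0, 0.231 and 0 CPM in microglia (log2 fold change 11.80 ± 0.40, edgeR adjusted p = 9.7e-15). Its counts were at 0 in microglia replicates 3 and 5. F13a1 (chr13:36867178-37050244, minus strand), the coagulation factor XIII A chain, was at 4008, 4252, 4619.5 and 4018 CPM in MHC II-low dura and 1.88, 0.185, 0.463 and 0.462 CPM in microglia (log2 fold change 12.46 ± 0.45, edgeR adjusted p = 5.5e-14). Microglia replicate 1 was the highest of the microglia for F13a1 and still far below each dura library. Cd163 (chr6:124304656-124330527, plus strand), the receptor for haptoglobin-hemoglobin complexes, was at 1326, 1063, 1057 and 1062 CPM in MHC II-low dura and 1.19, 0.247, 0.231 and 0.0661 CPM in microglia (log2 fold change 11.32 ± 0.36, edgeR adjusted p = 3.1e-15). Pf4, a platelet-factor chemokine also made by macrophages, was at 644, 744, 796 and 683 CPM in MHC II-low dura and 1.07, 0.555, 0.579 and 0.529 CPM in microglia (log2 fold change 10.03 ± 0.39, edgeR adjusted p = 1.1e-13). Ms4a7, a tetraspan membrane protein, was at 517, 536, 473 and 502 CPM in MHC II-low dura and 1.38, 0.432, 0.347 and 0.264 CPM in microglia (log2 fold change 9.70 ± 0.32, edgeR adjusted p = 3.8e-15). For Cd163, Pf4 and Ms4a7, too, microglia replicate 1 had the highest microglial level. Without it the log2 fold changes were 12.50 for Cd163, 13.42 for F13a1 and 10.45 for Ms4a7. Without microglia replicate 4 the microglia held 2 counts of Lyve1, and the ratio of means was 8280 (2290 to 68400), with its 95% interval for counting error.

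Stab1, a scavenger receptor that clears modified lipoproteins and apoptotic cells, was at 2774, 3499, 2736 and 2831 CPM in MHC II-low dura and 412, 198, 294 and 288 CPM in microglia (log2 fold change 3.31 ± 0.23, edgeR adjusted p = 3.9e-10). Its level in microglia was well above 0, and the difference was among the smaller ones of the list. Folr2, folate receptor beta, was at 512, 472, 468 and 446 CPM in MHC II-low dura and 1.32, 0.617, 1.22 and 0.661 CPM in microglia (log2 fold change 8.94 ± 0.25, edgeR adjusted p = 3.3e-16). Apoe, the apolipoprotein of lipid transport, was at 31949, 38536, 36267 and 29761 CPM in MHC II-low dura and 1074, 1114, 1153 and 775 CPM in microglia (log2 fold change 5.05 ± 0.17, edgeR adjusted p = 4.4e-15). The transcription factor Maf was at 248, 243, 268 and 274 CPM in MHC II-low dura and 96.8, 60.8, 90.3 and 91.4 CPM in microglia (log2 fold change 1.61 ± 0.12, edgeR adjusted p = 9.8e-10). None of these 4 genes had overlapping groups, and Maf, present in both populations, had the smallest change of them.

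The promoter window of Mrc1 is shown as an example of a gene that was higher in MHC II-low dura. It is the RefSeq sequence (GRCm38.p6, chr2:14229164-14229363, plus strand) from 250 to 51 bases before the start, 5′ to 3′, and the capitals mark GAGGAA or its reverse complement TTCCTC, the core letters of sites bound by the macrophage factor Spi1.
Mrc1: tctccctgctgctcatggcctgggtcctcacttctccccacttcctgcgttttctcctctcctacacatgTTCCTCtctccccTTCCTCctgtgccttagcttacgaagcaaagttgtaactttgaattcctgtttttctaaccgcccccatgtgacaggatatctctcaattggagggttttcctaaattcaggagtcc
The window holds 2 matches, which do not overlap. GAGGAA or TTCCTC is in 18.8% of all 32851 RefSeq windows of that length, in 20.8% of those of genes that rose and in 20.6% of those of genes that fell. A match is a description of the letters only.

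**Figure D2:**
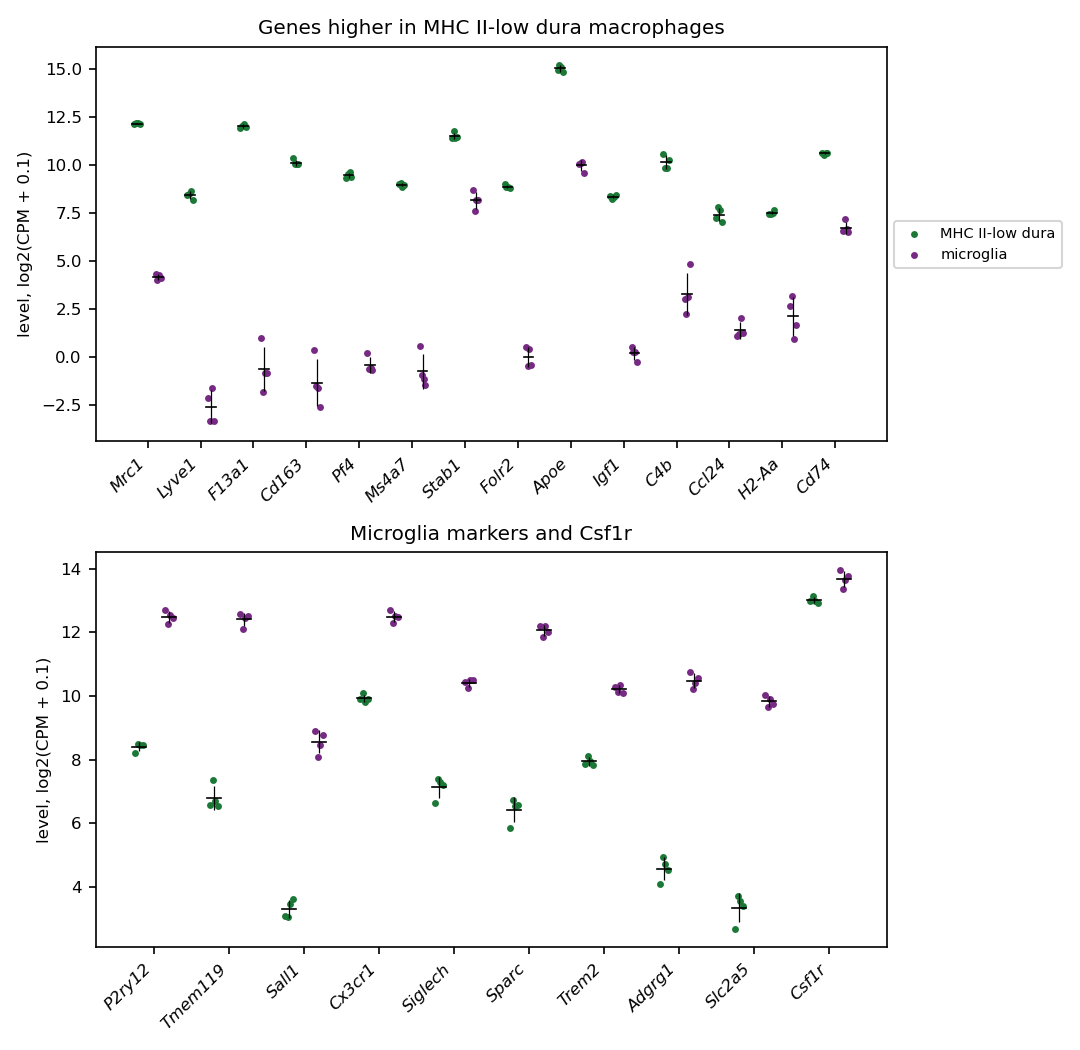
Level of 24 key genes in each of the 4 MHC II-low dura (green) and 4 microglia libraries (purple), as log2 of CPM plus 0.1, with mean and SD as lines. In the upper panel every dura library lies above every microglia library, and in the lower panel every dura library lies below.

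The largest rises were led by lectin receptors of the Cd209 and Clec families. The 15 genes with the largest fitted rise, among called genes with a mean of at least 20 CPM and no overlap between libraries, were Cd209f, Mmp9, Cd209g, Clec4n, Ccl8, F13a1, Rgs18, Nxpe5, Clec10a, Cd28, Vnn3, Lyve1, Timd4, Chp2 and Il10. They include 4 lectins (Cd209f, Cd209g, Clec4n and Clec10a), a matrix protease (Mmp9), a chemokine (Ccl8), a receptor for phosphatidylserine on dying cells (Timd4) and the anti-inflammatory cytokine Il10. Cd28 is best known as a costimulatory receptor of T cells, and the 8 T and NK cell markers found in the files summed to 0.678 to 3.24 CPM in the dura libraries and 0.37 to 0.579 CPM in microglia. Mmp9 is also made by neutrophils, whose 9 markers in the files summed to 1.25 to 3.21 CPM and 1.23 to 2.25 CPM. The part of such cells in the levels of Cd28 and Mmp9 was not tested.

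Cd209f (chr8:4102787-4105835, minus strand) was at 390.2, 449, 499 and 392 CPM in MHC II-low dura and had no count in any microglia library. Cd209g (chr8:4134098-4137707, plus strand), its neighbour, was at 119.8, 138, 145 and 124 CPM in MHC II-low dura and had no count in any microglia library. Mmp9 (gelatinase B), which cleaves basement membrane collagen, was at 176, 393, 410.2 and 209 CPM in MHC II-low dura and had no count in any microglia library. The fold changes are therefore bounds against 3 counts summed over the group: at least 9320-fold higher for Cd209f, at least 2830-fold for Cd209g and at least 6450-fold for Mmp9. By the same bound, Nxpe5 was at least 539-fold higher, Cd28 at least 477-fold and Vnn3, an enzyme of pantetheine breakdown, at least 430-fold. Dura replicates 2 and 3 had more Mmp9 than replicates 1 and 4, while the Cd209 genes varied less.

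Clec4n (dectin-2), a receptor for fungal mannans, was at 343, 357, 414 and 330.4 CPM in MHC II-low dura and had counts in microglia replicate 3 alone, with a ratio of means of 7760 (95% counting interval 2650 to 37600). On the same basis the ratio was 6700 (1200 to 265000) for Rgs18, a regulator of G-protein signalling, 4100 (1140 to 33900) for Timd4, 4000 (1110 to 33000) for Chp2 and 4180 (749 to 165000) for Il10. These intervals cover counting error only. Ccl8, a chemokine for monocytes and other leukocytes, was at 646, 253, 379 and 456 CPM in MHC II-low dura and 0.251, 0, 0 and 0 CPM in microglia (log2 fold change 12.65 ± 0.70, edgeR adjusted p = 7.8e-11). Clec10a, a galactose-type lectin, was at 496, 461, 518 and 414 CPM in MHC II-low dura and 0, 0.432, 0 and 0 CPM in microglia (log2 fold change 12.02 ± 0.39, edgeR adjusted p = 4e-15). Microglial counts of Clec10a came from replicate 3 alone, and those of Ccl8 from replicate 1 alone. Without the library that held them no microglial count is left, and against 3 counts Clec10a was at least 7590-fold higher and Ccl8 at least 6910-fold higher. When the same rule was applied without microglia replicate 3, Cd209b, Cd209a and Mmp13 took the places of Vnn3, Lyve1 and Chp2, a choice made after seeing the data.

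Microglial identity genes went the other way. Of the 20 microglia markers listed, 18 fell in MHC II-low dura and 0 rose, beside 12.7% of all genes that fell, and the median log2 fold change was -3.63 (-3.76 without microglia replicate 3). The 2 markers not called, chosen after their values were seen, were Fcrls (2376 ± 280.4 against 3294 ± 371 CPM, log2 fold change -0.47) and the transcription factor Bhlhe41 (109.9 ± 62.4 against 110.1 ± 21.3 CPM). The level of a marker in MHC II-low dura was 1 to 99.8% of that in microglia, with a median of 8.34%, so most markers were low and not absent.

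P2ry12 (chr3:59216272-59262871, minus strand), the ADP receptor by which microglia sense injury, was at 296, 363, 349 and 355 CPM in MHC II-low dura and 6654, 4903, 5947 and 5605 CPM in microglia (log2 fold change -4.08 ± 0.17, edgeR adjusted p = 7.8e-14). Tmem119 (chr5:113793729-113800516, minus strand) was at 95.2, 166, 103 and 93.3 CPM in MHC II-low dura and 6124, 4373, 5605 and 5839 CPM in microglia (log2 fold change -5.59 ± 0.24, edgeR adjusted p = 2.1e-13). Dura replicate 2 had more Tmem119 than the other dura libraries. Sall1 (chr8:89027235-89044162, minus strand), the transcription factor that maintains microglial identity, was at 8.44, 8.13, 11 and 12.1 CPM in MHC II-low dura and 483, 272, 355 and 441 CPM in microglia (log2 fold change -5.29 ± 0.27, edgeR adjusted p = 1.1e-10). Sall3, of the same family, fell with a log2 fold change of -6.64 (1.87 ± 0.495 against 187 ± 34.1 CPM). All 4 genes had dura libraries far below the lowest microglia library.

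Cx3cr1, the fractalkine receptor, was at 956, 1088, 901 and 964 CPM in MHC II-low dura and 6692, 5047, 5832 and 5689 CPM in microglia (log2 fold change -2.57 ± 0.17, edgeR adjusted p = 1.3e-10). It was not near 0 in any dura library. Siglech, a sialic acid receptor, was at 99.3, 168, 157 and 146 CPM in MHC II-low dura and 1398, 1210.1, 1444 and 1458 CPM in microglia (log2 fold change -3.27 ± 0.19, edgeR adjusted p = 1.6e-11). Sparc, a matrix protein made by microglia, was at 57.7, 106, 93.2 and 95.9 CPM in MHC II-low dura and 4696, 3697, 4678 and 4167 CPM in microglia (log2 fold change -5.61 ± 0.40, edgeR adjusted p = 2e-09). Dura replicate 1 had the lowest level of both Siglech and Sparc. Trem2, a lipid receptor of microglia, was at 235, 278, 249 and 226 CPM in MHC II-low dura and 1259, 1117, 1304 and 1087 CPM in microglia (log2 fold change -2.27 ± 0.25, edgeR adjusted p = 3.1e-07). Adgrg1, an adhesion G-protein receptor, was at 16.8, 30.3, 26.3 and 23.1 CPM in MHC II-low dura and 1725, 1181, 1369.6 and 1515 CPM in microglia (log2 fold change -5.91 ± 0.35, edgeR adjusted p = 1.3e-09). Slc2a5, a fructose transporter, was at 6.32, 13, 11.7 and 10.4 CPM in MHC II-low dura and 1058, 806, 949.9 and 869 CPM in microglia (log2 fold change -6.47 ± 0.46, edgeR adjusted p = 2.7e-09). The groups did not overlap for any of these 6 genes, and leaving out microglia replicate 3 moved their log2 fold changes by little, to -2.70, -3.40, -5.74, -2.37, -6.06 and -6.60 in the order given.

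The promoter windows of Siglech and Trem2, picked by hand, are shown as examples of microglia genes that fell in MHC II-low dura. A link of these windows to the TGF-beta pathway genes described further on was not tested. They are RefSeq sequences (GRCm38.p6, chr7:55767934-55768133 and chr17:48346151-48346350, both plus strand) from 250 to 51 bases before the start, 5′ to 3′, and the capitals mark CAGAC or its reverse complement GTCTG, letters of sites bound by Smad proteins.
Siglech: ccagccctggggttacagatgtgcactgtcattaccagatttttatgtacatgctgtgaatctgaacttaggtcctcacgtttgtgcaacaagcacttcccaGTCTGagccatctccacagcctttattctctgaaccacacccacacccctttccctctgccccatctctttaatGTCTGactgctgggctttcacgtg
Trem2: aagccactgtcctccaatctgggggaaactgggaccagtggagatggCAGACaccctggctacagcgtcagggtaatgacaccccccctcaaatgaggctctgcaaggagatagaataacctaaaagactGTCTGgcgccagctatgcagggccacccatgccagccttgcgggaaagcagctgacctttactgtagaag
Each window holds 2 matches, which do not overlap. At least 1 match is in 35.8% of all RefSeq windows of that length, in 37.8% of those of genes that fell and in 34.6% of those of genes that rose. These shares lie near each other, and a match says nothing about binding.

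Some microglia markers that were low in MHC II-low dura were lower still in MHC II-high dura. In the direct comparison with MHC II-high dura, 541 of all genes were called (3.88%), 207 higher in MHC II-low dura (1.48%) and 334 lower (2.39%). Of the 20 microglia markers, 5 were higher in MHC II-low than in MHC II-high dura, namely Sall1, Sall3, Slc2a5, Adgrg1 and Crybb1, and 1, Bhlhe41, was lower. Crybb1 and Bhlhe41 were chosen after their values were seen. Sall1 was at 0.855 ± 0.49 CPM in MHC II-high dura and 0.0513 ± 0.0344 CPM in choroid plexus macrophages, against 9.91 ± 1.94 CPM in MHC II-low dura. The log2 difference between MHC II-low and MHC II-high dura was 3.54 ± 0.30, edgeR adjusted p = 2.3e-06. For Adgrg1 it was 3.63 ± 0.34, edgeR adjusted p = 8.2e-06, for Slc2a5 3.75 ± 0.48, edgeR adjusted p = 7e-05 and for Sall3 5.74 ± 0.46, edgeR adjusted p = 8.1e-07. Their levels in MHC II-low dura were 1 to 2.56% of those in microglia. P2ry12 (0.70 ± 0.15, edgeR adjusted p = 0.0039) and Siglech (0.99 ± 0.18, edgeR adjusted p = 0.00086) were also higher than in MHC II-high dura, short of 2-fold. Tmem119 went the other way and was lower than in MHC II-high dura, likewise short of 2-fold (-0.97 ± 0.20, edgeR adjusted p = 0.0033). Its levels were 114 ± 34.5 CPM in MHC II-low and 224 ± 34.9 CPM in MHC II-high dura.

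**Figure D3:**
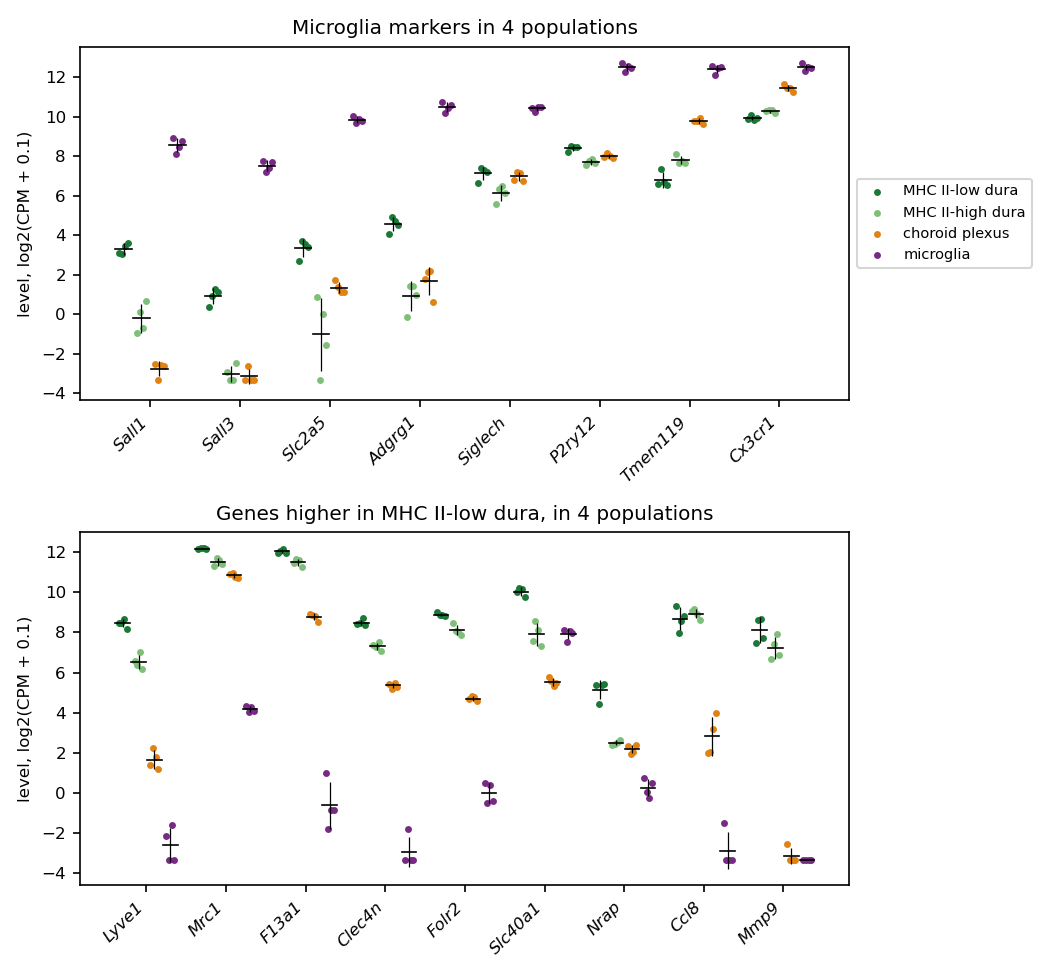
Level in each library, as log2 of CPM plus 0.1, of 8 microglia markers (upper panel) and 9 genes higher in MHC II-low dura (lower panel) in MHC II-low dura, MHC II-high dura, choroid plexus macrophages and microglia, 4 libraries each, with mean and SD as lines. Sall1, Sall3, Slc2a5 and Adgrg1 are low in MHC II-low dura and lower still in MHC II-high dura and choroid plexus, while Lyve1, Slc40a1 and Nrap are highest in MHC II-low dura.

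The border markers were also compared with the other border populations. Against choroid plexus macrophages, whose libraries held 4219.9 to 7976 CPM of the epithelial markers, 1788 of all genes were called (12.8%), 583 higher in MHC II-low dura (4.18%) and 1205 lower (8.63%). Of the 20 border markers, 3 were higher in MHC II-low than in MHC II-high dura (Lyve1, Stab1 and Clec4n) and 1 lower (Lilra5, chosen after its values were seen), and 14 were higher than in choroid plexus macrophages and 1 lower. Lyve1 was at 94.9 ± 24.2 CPM in MHC II-high dura (log2 difference 1.89 ± 0.22, edgeR adjusted p = 1.1e-05) and at 3.18 ± 1.12 CPM in choroid plexus macrophages (6.78 ± 0.28, edgeR adjusted p = 2.8e-12). Nrap, a muscle anchoring protein, was at 41.1, 21.5, 41.1 and 43.2 CPM in MHC II-low dura and 1.57, 0.925, 0.752 and 1.32 CPM in microglia (log2 fold change 5.0 ± 0.29, edgeR adjusted p = 1.2e-11), and it was higher than in MHC II-high dura by 2.71 ± 0.25, edgeR adjusted p = 8.5e-07. Dura replicate 2 had the lowest level of Nrap among the dura libraries and still lay far above the microglia. The Cd209 lectins separated dura from choroid plexus: Cd209f was at 0.118 ± 0.0642 CPM in choroid plexus macrophages (11.77 ± 0.33, edgeR adjusted p = 1.5e-13) and at 253 ± 29.1 CPM in MHC II-high dura. Ms4a7 was not called against either border population (-0.03 and 0.08).

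The largest falls included genes of choroid plexus epithelium that were highest in microglia replicate 3. By the rule used for the rises, the 15 largest were Csmd3, Kcne2, Slco1a4, Myo18b, Ttr, Slc4a5, Upk1b, Kcnj13, Folr1, Kl, Car12, Enpp2, Trpm3, Kcnk1 and Slco1c1. Where the dura libraries had no count, the rank again rests on a fitted value that a count of 0 does not fix. Csmd3 (chr15:47580637-48792063, minus strand), a large membrane protein with complement-type domains, was at 0, 0, 0 and 0 CPM in MHC II-low dura and 47.9, 45.9, 43.1 and 41.3 CPM in microglia, at least 1670-fold lower in MHC II-low dura by the bound of 3 counts. Slco1a4, an organic anion transporter, was at 30.3, 32.9, 19.6 and 12.3 CPM in microglia and at least 895-fold lower, and Myo18b, an unconventional myosin, was at 20.2, 15.1, 21.9 and 23.4 CPM and at least 755-fold lower. Upk1b, a tetraspanin, was at 0, 0, 0 and 0.493 CPM in MHC II-low dura and 90, 100, 106 and 99 CPM in microglia (log2 fold change -9.57 ± 0.95, edgeR adjusted p = 7.5e-06), and its counts in the dura came from replicate 4 alone, without which it was at least 2770-fold lower by the same bound. For Csmd3 and Upk1b the levels of the 4 microglia libraries lay near each other, for Myo18b replicate 3 was the lowest, and for Slco1a4 it was the highest.

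The other 11 genes of that set were likewise highest in microglia replicate 3, and by a wider margin. Ttr, the thyroid hormone carrier made by choroid plexus epithelium, was at 0.568, 0.964, 2.56 and 7.68 CPM in MHC II-low dura and 45, 9719.7, 338 and 147 CPM in microglia (log2 fold change -9.76 ± 1.80, edgeR adjusted p = 0.0005). Enpp2 (autotaxin), also made there, was at 5.07, 3.92, 7.42 and 10.9 CPM in MHC II-low dura and 15.5, 9049, 316 and 157 CPM in microglia (log2 fold change -8.45 ± 1.55, edgeR adjusted p = 0.00026). Kl, the co-receptor klotho, was at 0.454, 0, 0 and 0.881 CPM in MHC II-low dura and 1, 538, 17.2 and 7.86 CPM in microglia (log2 fold change -8.71 ± 1.88, edgeR adjusted p = 0.0016). Microglia replicate 3 was far above the other microglia for Ttr, Enpp2 and Kl, and the dura libraries were the lowest. Without it, the log2 fold changes were -5.98 for Ttr, -4.65 for Enpp2, -4.78 for Kl, -5.30 for Kcnj13, -5.31 for Folr1, -5.02 for Car12, -4.76 for Trpm3, -4.60 for Kcnk1 and -5.46 for Slco1c1, against -9.76, -8.45, -8.71, -8.99, -8.73, -8.51, -8.32, -7.91 and -7.76 with it. Kcne2 was at 0.877, 147, 3.18 and 3.24 CPM in microglia and at 0 in all dura libraries, a bound of at least 1450-fold with replicate 3 and at least 91.4-fold without it. It was not called when only the 8 libraries of the compared populations were fitted. Slc4a5, a bicarbonate transporter, had 3 counts in the dura, and the ratio of the microglial to the dura mean was 983 (336 to 4770) with replicate 3 and 90.7 (30.3 to 446) without it. Leaving out a dura library moved several of these low values too. Without dura replicate 4 no dura count of Car12 or Kcnk1 is left, so Car12 was at least 1150-fold lower and Kcnk1 at least 579-fold lower by the bound, and the log2 fold change was -9.93 for Kl and -10.92 for Ttr. Without dura replicate 3 the log2 fold change of Slco1c1 was -9.12 and the ratios were 2060 (570 to 17000) for Folr1 and 2250 (404 to 89000) for Slc4a5, on 2 counts and 1 count. Without dura replicate 1 the ratio for Trpm3 was 955 (326 to 4630), on 3 counts.

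All 15 choroid plexus epithelial markers fell with microglia replicate 3 in the fit (median log2 fold change -8.45), and 11 fell without it (-4.78). Summed over the list, microglia replicates 1, 4 and 5 were also above the highest dura library, with the sums given above, and MHC II-high dura held 22.9 to 51.9 CPM. When the rule was applied without replicate 3, a choice made after seeing the data, the 15 largest falls were Csmd3, Myo18b, Slco1a4, Upk1b, Khdrbs3, Ecscr, Tmc7, Nav3, Chst8, Ptprb, Cldn5, Sall3, Adamts16, Cd34 and Slc2a5. Of these, Cd34, a sialomucin of stem and endothelial cells, was at 344, 227, 307 and 309 CPM in the microglia libraries and 1.82, 4.56, 2.9 and 3.77 CPM in the dura libraries. Ecscr, an endothelial regulator, was at 173, 147, 172 and 144 CPM in microglia and 0.606, 0.353, 1.58 and 1.16 CPM in the dura. Nav3, a neuron navigator, was at 145, 123, 129.6 and 134 CPM and 0, 1.38, 0.942 and 2.15 CPM. Cd34, Ecscr and Nav3 were high in every microglia library, replicate 3 included.

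**Figure D4:**
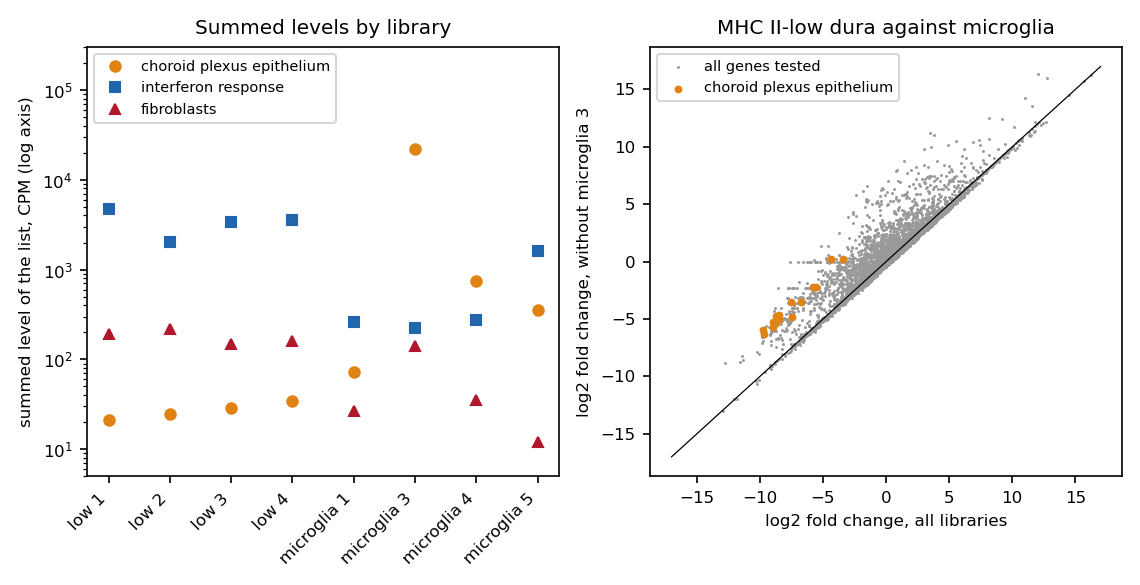
Left: summed CPM, on a log axis, of the markers of choroid plexus epithelium, the interferon-response genes and the fibroblast markers in each of the 8 libraries. Right: log2 fold change of every gene tested with all libraries (x axis) against that without microglia replicate 3 (y axis), with the 15 epithelial markers in orange; the orange points lie above the line of equality, and microglia replicate 3 holds 21706 CPM of the epithelial list.

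Genes of antigen presentation moved in both directions. The counts of this list and of those that follow stand beside 13.8% of all genes that rose and 12.7% that fell (14.4% and 11.3% without microglia replicate 3). Of 10 MHC class II genes tested, 5 rose and 3 fell, while H2-Eb2 was too low to be tested. Those that rose include a chain of the molecule that presents peptides to helper T cells, H2-Aa, and its invariant chain, Cd74. H2-Aa was at 178, 178, 186 and 201 CPM in MHC II-low dura and 6.27, 9.13, 1.79 and 3.11 CPM in microglia (log2 fold change 5.19 ± 0.58, edgeR adjusted p = 1.1e-06). Cd74 was at 1588, 1511, 1601 and 1626 CPM in MHC II-low dura and 94.9, 146, 101 and 92 CPM in microglia (log2 fold change 3.87 ± 0.46, edgeR adjusted p = 1.7e-06). The groups did not overlap. Ciita, the master regulator of the class, rose as well (10.2 ± 4.12 against 0.154 ± 0.238 CPM, log2 fold change 5.99). Without microglia replicate 1 the microglia held 2 counts of Ciita, and the ratio of means was 246 (68 to 2040). Those that fell include H2-Oa (0.716 ± 0.362 against 38.5 ± 4.43 CPM, -5.73) and H2-Ob (5.85 ± 2.03 against 48.4 ± 6.41 CPM, -3.05), the chains of a molecule that restrains peptide loading. The median of the list was 1.79, but it was -0.31 with no filter on low counts, which adds H2-Eb2. Against MHC II-high dura, the log2 difference was -5.26 ± 0.57, edgeR adjusted p = 1.3e-05 for H2-Aa and -4.29 ± 0.47, edgeR adjusted p = 1.2e-05 for Cd74, so both lay between microglia and MHC II-high dura.

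Of 12 MHC class I genes, 6 rose and 0 fell (median 0.77), and 3 rose without microglia replicate 3 (0.59). H2-D1, a class I heavy chain, was at 1820.2 ± 392 against 534 ± 185 CPM (log2 fold change 1.77 ± 0.26, edgeR adjusted p = 1.6e-05). Nlrc5, the regulator of class I genes, overlapped between groups and was barely called (log2 fold change 1.63 ± 0.63, edgeR adjusted p = 0.039). Microglia replicate 5 held 45.7 CPM of Nlrc5 against 5 to 8.45 CPM in the other microglia. Without MHC II-low dura replicate 1 or 4, or microglia replicate 1, 3 or 4, Nlrc5 was no longer called (log2 fold changes 1.37, 1.49, 1.35, 1.27 and 1.36), and without microglia replicate 5 the value was 2.79. Leaving out any 1 of the same 5 libraries left 3 class I genes called.

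Scavenger and C-type lectin receptors rose more often than they fell, beside the 13.8% and 12.7% of all genes. Of 14 scavenger receptors, 10 rose and 0 fell (median 5.71), and of 20 C-type lectin receptors, 16 rose and 0 fell (median 6.02). Without dura replicate 1, 2 or 4 or microglia replicate 3, 4 or 5, 1 or 2 lectin genes fell. Cd36, a receptor for oxidised lipids, was at 667, 831, 905 and 742 CPM in MHC II-low dura and 2.13, 0.432, 0.579 and 1.59 CPM in microglia (log2 fold change 9.39 ± 0.34, edgeR adjusted p = 2e-14). Timd4, Cd163, Mrc1 and Lyve1, given above, belong to the scavenger list as well. Among the lectins, Cd209b had a ratio of 2310 (790 to 11200), and Cd209a was at 32 ± 11.2 against 0.108 ± 0.216 CPM (8.13). Its microglial counts came from replicate 3 alone, and without that library it was at least 521-fold higher by the bound of 3 counts. Toll-like receptors were divided, with 5 of 16 higher and 4 lower (4 and 4 without microglia replicate 3). Tlr8, a sensor of single-stranded RNA, rose with a ratio of 2970 (1020 to 14400), whereas Tlr12 (10.2 ± 2.36 against 82.9 ± 18.6 CPM, -3.02) and Tlr3, a sensor of double-stranded RNA (38.4 ± 13.2 against 123 ± 44.1 CPM, -1.68), fell. Of 16 Fc and Siglec receptors, 5 rose and 5 fell (4 and 5 without microglia replicate 3): Siglec1, a sialic acid receptor of border macrophages, was at 459 ± 148 against 4.01 ± 4.22 CPM (6.85, and 7.80 without microglia replicate 5), Fcgrt, the recycling IgG receptor, at 1376 ± 170.5 against 177 ± 13.9 CPM (2.96), and Siglecf at 1.74 ± 0.131 against 49.3 ± 7.76 CPM (-4.82).

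Receptors for dying cells did not move as a group. Of 17 apoptotic cell uptake genes, 5 rose and 8 fell (median -0.99). Axl, a receptor that binds phosphatidylserine through Gas6, was at 1175, 867, 922 and 948 CPM in MHC II-low dura and 64, 40.7, 51.3 and 88.5 CPM in microglia (log2 fold change 4.00 ± 0.40, edgeR adjusted p = 1.8e-07), and its relative Mertk was at 214, 196, 209 and 186 CPM in MHC II-low dura and 739.7, 574, 631 and 764 CPM in microglia (log2 fold change -1.75 ± 0.12, edgeR adjusted p = 1.8e-10). These receptors of the same family thus lay on opposite sides, each with no overlap. Havcr2 (24.8 ± 3.53 against 297 ± 23.2 CPM, -3.58) and Itgb5, an integrin chain (747 ± 93.4 against 3236 ± 617 CPM, -2.12), fell. Adgrb1 and Megf10 were too low to be tested.

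Complement genes rose more often than they fell, and the C1q chains were not called. Of 18 complement genes, 8 rose and 1 fell (median 0.81), against 13.8% and 12.7% of all genes. Without microglia replicate 3 the counts were 9 and 1 (median 1.23). C4b was at 1560.3, 930.1, 925 and 1236 CPM in MHC II-low dura and 7.96, 4.69, 8.57 and 28.5 CPM in microglia (log2 fold change 6.55 ± 0.52, edgeR adjusted p = 1.2e-08). Microglia replicate 5 was the highest microglia library, and without it the log2 fold change was 7.29. Cfp (properdin), which stabilises the alternative pathway convertase, was at 697 ± 124 against 0.438 ± 0.162 CPM (10.63), and C2 at 208 ± 37.7 against 1.01 ± 0.533 CPM (7.70). Itgam, a chain of complement receptor 3, fell (424 ± 13.5 against 1445 ± 282 CPM, -1.77). The log2 fold changes of C1qa, C1qb and C1qc, the chains of the initiating C1q molecule, were -0.14 ± 0.10, -0.21 ± 0.11 and -0.25 ± 0.11. They were chosen after their values were seen.

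Of 16 coagulation and fibrinolysis genes, 4 rose and 4 fell. Beside F13a1, Thbd (thrombomodulin), which turns thrombin towards anticoagulation, rose (114 ± 18 against 4.78 ± 1.56 CPM, 4.57). F5, coagulation factor V, fell (2.13, 107, 5.96 and 2.77 CPM in microglia, -7.33), with its highest level in microglia replicate 3, and the value was -4.39 without that library. Without dura replicate 4 no dura count of F5 is left, and it was at least 829-fold lower by the bound. Plaur, the urokinase receptor, fell (14.9 ± 3.42 against 34.2 ± 13 CPM, -1.20) and was not called without microglia replicate 3 (-0.99).

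Iron and heme genes rose in 10 of 18 cases and fell in 0 (median 1.08). Slc40a1 (ferroportin), the iron exporter, was at 1021, 1182, 1146 and 856 CPM in MHC II-low dura and 282, 184, 265 and 252 CPM in microglia (log2 fold change 2.10 ± 0.23, edgeR adjusted p = 2.6e-07). Dura replicate 4 had the lowest dura level, still above every microglia library. Slc40a1 was also higher than in MHC II-high dura (2.06 ± 0.23, edgeR adjusted p = 8.2e-06) and in choroid plexus macrophages (4.49 ± 0.25, edgeR adjusted p = 3.1e-10). Spic, a transcription factor of heme-clearing macrophages, rose with a ratio of 886 (245 to 7320). Its only microglial counts were in replicate 5.

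Chemokines were mostly higher and the chemokine receptors were divided. Of 22 chemokines, 14 rose and 2 fell (median 3.95), or 13 and 2 without microglia replicate 3 (3.74). Ccl24 (eotaxin-2), which attracts eosinophils, was at 151, 223, 200.2 and 133 CPM in MHC II-low dura and 2.01, 2.22, 3.99 and 2.25 CPM in microglia (log2 fold change 6.07 ± 0.31, edgeR adjusted p = 7.8e-12). Ccl4 (274, 328, 385 and 325 CPM in MHC II-low dura and 1627, 1799, 1747 and 1415 CPM in microglia; log2 fold change -2.33 ± 0.33, edgeR adjusted p = 1.1e-05) and Ccl3 (397 ± 64.7 against 953 ± 86.2 CPM, -1.26) were the 2 that fell. Of 11 chemokine receptors, 4 rose and 5 fell. Ccr2, the receptor that brings monocytes into tissue, was at 113, 112, 77.6 and 122 CPM in MHC II-low dura and 2.26, 2.16, 2.43 and 3.7 CPM in microglia (log2 fold change 5.33 ± 0.41, edgeR adjusted p = 4.8e-09), and its log2 difference from MHC II-high dura was -3.41 ± 0.35, edgeR adjusted p = 6.4e-06. Cxcr4 rose (12.2 ± 2.66 against 0.564 ± 0.27 CPM, 4.43), and Ccrl2 fell (215 ± 32.4 against 552 ± 44.2 CPM, -1.36) as did Cx3cr1. Of 12 monocyte markers, 7 rose and 0 fell. The monocyte list summed to 939 to 1438 CPM in the dura libraries and 300.4 to 593 CPM in microglia, and its part in these results was not tested.

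Cytokines and growth factors changed in both directions. Of 16 inflammatory cytokines, 4 rose and 3 fell (median -0.47), or 4 and 4 without microglia replicate 3 (-0.60), beside 13.8% and 12.7% of all genes. Il1b was at 109.9, 162, 198 and 142 CPM in MHC II-low dura and 26.5, 14.6, 16.2 and 15.4 CPM in microglia (log2 fold change 3.08 ± 0.39, edgeR adjusted p = 3.8e-06), while Il1a was at 41.1, 45.1, 55.8 and 58.8 CPM in MHC II-low dura and 468, 715, 556 and 598 CPM in microglia (log2 fold change -3.54 ± 0.39, edgeR adjusted p = 8.6e-07). Both encode interleukin 1 and lay on opposite sides with no overlap. Csf1, a ligand of Csf1r, fell (19.5 ± 6.94 against 164 ± 35.2 CPM, -3.07). Of 17 growth factors, 4 rose and 3 fell (5 and 2 without microglia replicate 3), with a median near 0 whose sign changed with the library left out and with the scaling. Igf1, insulin-like growth factor 1, was at 334, 307, 326 and 349.5 CPM in MHC II-low dura and 1.32, 1.11, 1.1 and 0.727 CPM in microglia (log2 fold change 8.26 ± 0.36, edgeR adjusted p = 8.9e-13). Bmp2, a ligand of the BMP pathway, was at 255 ± 74.5 against 1.03 ± 0.53 CPM (7.93). Tgfa (23.5 ± 5.74 against 197 ± 23.6 CPM, -3.06) and Pdgfb (39.4 ± 6.8 against 311 ± 21.9 CPM, -2.98) fell. Of 9 CSF receptors and ligands, 1 rose and 2 fell (0 and 2 without microglia replicate 3). Csf1r itself, present in both populations, was at 8174, 9027, 8202 and 7769.6 CPM in MHC II-low dura and 15944, 10608, 12756 and 14088 CPM in microglia (log2 fold change -0.69 ± 0.16, edgeR adjusted p = 0.0015), short of the 2-fold change although the groups did not overlap. Csf3r, the G-CSF receptor, fell (119 ± 3.83 against 579 ± 68.8 CPM, -2.28). Csf2ra, a chain of the GM-CSF receptor, rose (164 ± 16 against 77.6 ± 8.72 CPM, 1.08) and was not called without microglia replicate 3 (0.94) or, just short of 2-fold, with RLE scaling (1.00) or in DESeq2 (1.00).

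TGF-beta pathway and purinergic genes leaned to the microglial side. Of 20 TGF-beta genes tested, 2 rose and 9 fell (median -0.99, 3 and 8 without microglia replicate 3), beside 13.8% and 12.7% of all genes. Smad7, an inhibitor that the pathway itself induces, was at 14.7, 15.1, 15.9 and 11.5 CPM in MHC II-low dura and 378, 296, 346 and 479 CPM in microglia (log2 fold change -4.71 ± 0.38, edgeR adjusted p = 9.2e-09). Tgfbr1, the type I receptor, was at 334, 389, 269.9 and 341 CPM in MHC II-low dura and 2732, 1764, 2100.3 and 2597 CPM in microglia (log2 fold change -2.78 ± 0.16, edgeR adjusted p = 1.5e-11). Nrros, which anchors latent TGF-beta on macrophages, rose (1193 ± 94.4 against 477 ± 52.7 CPM, 1.32). Of 16 purinergic genes, 3 rose and 6 fell. P2ry12 fell as given above, and so did the adenosine receptor Adora3 (0.866 ± 0.366 against 37.7 ± 8.13 CPM, -5.43) and the ATP-gated channel P2rx1 (1.15 ± 0.398 against 24.8 ± 5.57 CPM, -4.42). P2ry14, a receptor for UDP-sugars (12 ± 3.99 against 0.371 ± 0.31 CPM, 4.99, and 5.61 without microglia replicate 3), and Ada, adenosine deaminase (13.7 ± 2.37 against 2.51 ± 0.242 CPM, 2.44), rose. The purinergic median turned from -1.01 to 0.26 without microglia replicate 3, with the same counts of calls.

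Macrophage transcription factors moved in both directions. Of 28 tested, 6 rose and 8 fell (6 and 10 without microglia replicate 3). Beside Maf, Tfec, of the Mitf family, rose (21.8 ± 2.18 against 0.385 ± 0.0559 CPM, 5.80), and so did Egr2 (471 ± 62.9 against 74.8 ± 11.2 CPM, 2.65). Sall1 and Sall3, given above, are among those that fell. Spi1, the factor that macrophages share, was not called (-0.27) and was chosen after its value was seen. Of 17 nuclear receptors, 5 rose and 1 fell (2 without dura replicate 3). Pparg, a regulator of lipid metabolism (16.2 ± 6.91 against 0.199 ± 0.248 CPM, 6.29, and 7.46 without microglia replicate 3), and the retinoic acid receptor Rara (55.3 ± 4.6 against 1.29 ± 1.52 CPM, 5.42, and 6.60) rose, and the clock component Nr1d1 fell (15.3 ± 6.25 against 70.8 ± 33 CPM, -2.21).

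General macrophage genes were divided evenly. Of 13 macrophage core genes, 3 rose and 3 fell (median 0.15, and -0.05 without microglia replicate 3). Lyz2 (lysozyme) was at 8349, 9505, 9178 and 9106 CPM in MHC II-low dura and 232, 171, 208 and 202 CPM in microglia (log2 fold change 5.47 ± 0.17, edgeR adjusted p = 1.1e-15). Adgre1, which encodes F4/80, was at 1780.1 ± 99 against 476 ± 75.5 CPM (1.90). Of 24 cathepsin and lysosome genes, 6 rose and 8 fell: Ctsc (3899 ± 132 against 755 ± 131 CPM, 2.37) rose, and Ctsd (4225 ± 451 against 17434 ± 1820 CPM, -2.05) fell. Of 19 lipid handling genes, 11 rose and 4 fell (median 2.08, 9 and 4 without microglia replicate 3). Pla2g7, which breaks down platelet-activating factor, rose (682 ± 99.9 against 4.87 ± 4.94 CPM, 7.13, and 7.98 without microglia replicate 3), and Lpcat2, which makes it, fell (251 ± 18.1 against 1865 ± 233 CPM, -2.89).

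Genes named for activated states rose more often than they fell. Of 20 genes known from disease-associated microglia, 10 rose (11 without microglia replicate 3), Apoe, Igf1 and Axl among them, and 5 fell, Trem2, Csf1, Ctsd and Cd9 (64.9 ± 13.2 against 1115 ± 83.8 CPM, -4.10) among them. Of 15 alternative activation genes, 8 rose and 2 fell. Mrc1, Cd163, Clec10a, Ccl24 and Egr2, described above, are among those that rose, and Tgm2, a transglutaminase (18.2 ± 2.91 against 125 ± 25.3 CPM, -2.78), and Il10ra (581 ± 29.4 against 1280.2 ± 153 CPM, -1.14) fell.

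Interferon-response genes rose in 15 of 16 cases and fell in 0 (median 2.89), where 13.8% of all genes rose. Without microglia replicate 3, 14 rose (median 2.53). Ifitm3, a restriction factor, was at 680.2, 317, 464 and 569 CPM in MHC II-low dura and 15.6, 17.5, 15.7 and 104 CPM in microglia (log2 fold change 3.73 ± 0.57, edgeR adjusted p = 4e-05). Rsad2 (viperin) was at 176, 93.9, 204 and 145 CPM in MHC II-low dura and 4.01, 2.53, 4.4 and 22.5 CPM in microglia (log2 fold change 4.22 ± 0.73, edgeR adjusted p = 0.00015). Microglia replicate 5 had several times the level of the other microglia for both, and it was still below every dura library. Without it, the log2 fold changes were 4.89 for Ifitm3 and 5.33 for Rsad2. The list summed to 4757, 2008, 3418 and 3549.7 CPM in the dura libraries, lowest in replicate 2, and each sum was above that of microglia replicate 5.

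Cell cycle genes rose in 11 of 14 cases and fell in 0 (median 2.76), where 13.8% of all genes rose. Top2a, a topoisomerase of dividing cells, was at 35.4, 13.3, 17.6 and 48.3 CPM in MHC II-low dura and 2.69, 1.42, 2.43 and 3.04 CPM in microglia (log2 fold change 3.58 ± 0.43, edgeR adjusted p = 1.8e-06). Ccnb2, a mitotic cyclin, was at 18.8, 4.63, 7.01 and 19.7 CPM in MHC II-low dura and 0.877, 1.11, 0.752 and 0.727 CPM in microglia (log2 fold change 3.84 ± 0.45, edgeR adjusted p = 7.4e-07). Dura replicates 1 and 4 had the higher levels and replicates 2 and 3 the lower ones, all above microglia.

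Few oxidative phosphorylation and cholesterol synthesis genes were called, beside 13.8% of all genes higher and 12.7% lower. Of 18 oxidative phosphorylation genes, 1 rose, Cox5a (91.1 ± 13.8 against 37.1 ± 11.1 CPM, 1.29), and 0 fell. Of 18 cholesterol synthesis genes, 0 rose and 1 fell, Fdft1 (6.61 ± 1.18 against 16.6 ± 6.5 CPM, -1.32). Of 16 glycolysis genes, 0 rose and 3 fell, beside the same shares, with the glucose transporter Slc2a1 (12.8 ± 1.8 against 146 ± 12.8 CPM, -3.51) and hexokinase Hk2 (60.5 ± 11.7 against 208 ± 22.8 CPM, -1.78) among them, while 1 rose without dura replicate 2 and 2 rose without microglia replicate 3. Of 18 oxidative genes and 18 cholesterol genes, 2 and 1 rose without microglia replicate 3, and 1 cholesterol gene rose without microglia replicate 5. Of 17 immediate early and heat shock genes, which are known to respond to tissue handling, 6 rose and 1 fell (6 and 0 without microglia replicate 3). The near-identical heat shock genes Hspa1a (949 ± 278 against 97.4 ± 9.87 CPM, 3.28) and Hspa1b (685 ± 268 against 19.4 ± 8.98 CPM, 5.14) rose. Atf3 fell (2199 ± 370.1 against 4424 ± 1006 CPM, -1.01) and was not called without MHC II-low dura replicate 1 (-0.94), MHC II-low dura replicate 2 (-0.97) or microglia replicate 3 (-0.92).

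Integrins leaned to microglia, with 3 of 20 higher and 11 lower (median -1.16), and 4 and 10 without microglia replicate 3 (-1.04). Of all genes, 13.8% and 12.7% were called higher and lower. Itga4 (69.5 ± 5.26 against 1.12 ± 0.522 CPM, 5.95) and Itgal (43.1 ± 11.1 against 0.701 ± 0.401 CPM, 5.94), integrin chains of leukocyte traffic, rose, and Itgb3 (2.01 ± 0.51 against 90.3 ± 20.7 CPM, -5.49) fell. Of 15 matrix proteases and inhibitors, 6 rose and 4 fell, and the median turned from -0.49 to 0.16 without microglia replicate 1. Mmp13, a collagenase, rose with a ratio of 665 (227 to 3230), and its microglial counts came from replicate 3 alone. Adamts1 fell (26.2 ± 10 against 1129 ± 79.7 CPM, -5.43), as did Adamts16 (0.244 ± 0.32 against 26.6 ± 4.34 CPM, -6.70, and -7.99 without dura replicate 2).

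**Figure D5:**
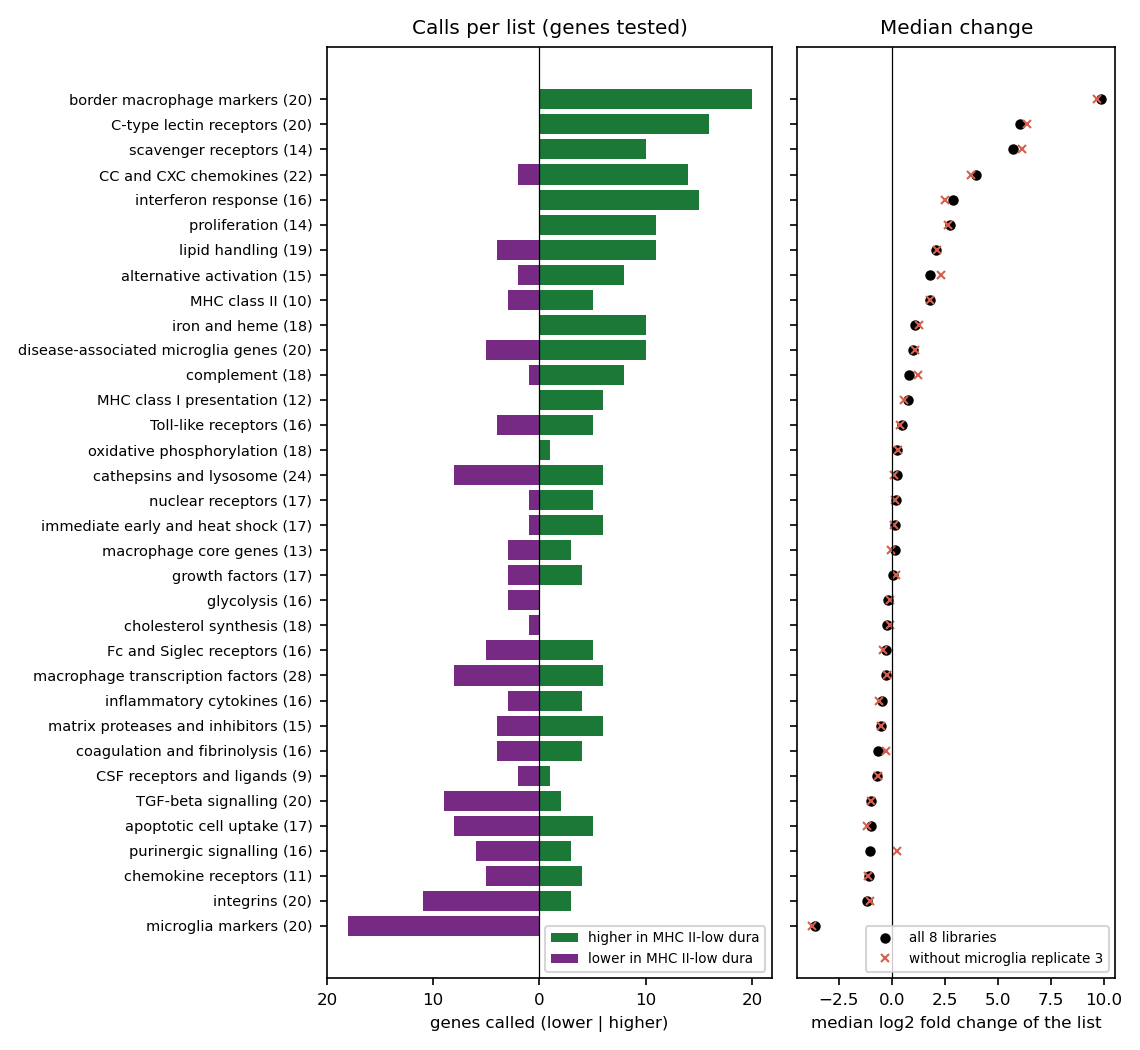
Left: number of genes of each list called higher (green) or lower (purple) in MHC II-low dura, with the number tested in parentheses. The lists of cell type markers are left out of both panels and of the order. Right: median log2 fold change of the list with all 8 libraries (black) and without microglia replicate 3 (red crosses); border macrophage markers head the order with 20 of 20 higher and microglia markers close it with 18 of 20 lower.

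Markers of other cell types moved with the comparison. Of 10 fibroblast markers, 3 rose and 0 fell, and 7 rose without microglia replicate 3. The collagen gene Col1a1 was at 56.5, 60.7, 56.4 and 42.9 CPM in MHC II-low dura and 0.313, 19.2, 0.405 and 0.132 CPM in microglia (log2 fold change 3.43 ± 0.87, edgeR adjusted p = 0.0037), and Col1a2 was at 53.6 ± 14.8 against 9.84 ± 13.6 CPM (2.44). Without microglia replicate 3 the values were 7.45 and 4.04, and neither was called when only the 8 libraries of the compared populations were fitted. The fibroblast list summed to 194, 218, 149 and 159 CPM in the dura libraries and 26.6, 140.2, 35 and 12.2 CPM in microglia. Of 11 endothelial markers, 1 rose, Egfl7 (46.8 ± 16.3 against 6.79 ± 1.18 CPM, 2.78), and 9 fell, Cldn5 (0.258 ± 0.3 against 23.2 ± 10.9 CPM, -6.48, and -7.43 without dura replicate 3) and Vwf (24.3, 2.1, 30.4 and 23.5 CPM in microglia, -4.67, and -5.29 without dura replicate 4) among them. Without microglia replicate 3, 10 fell. The endothelial list summed to 41.3 to 70.3 CPM in the dura libraries and 131 to 179 CPM in microglia. Of 8 pericyte and smooth muscle markers, 7 fell (6 without microglia replicate 3), with sums of 4.72 to 9.76 CPM and 10.2 to 139 CPM. Acta2, smooth muscle actin, overlapped between groups (2.12, 1.96, 2.79 and 1.94 CPM in MHC II-low dura and 1.69, 21, 70.3 and 31.2 CPM in microglia; -3.82, and -3.06 without microglia replicate 4).

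Of 6 osteoclast and bone markers, 3 rose, and 5 rose without microglia replicate 3. Acp5, an acid phosphatase, was at 31.5, 41, 28.6 and 8.14 CPM in MHC II-low dura and 0.0627, 0.679, 0.463 and 0.0661 CPM in microglia (log2 fold change 6.38 ± 0.56, edgeR adjusted p = 1.6e-08), and Ctsk at 12.7, 10.6, 18.9 and 0.705 CPM in the dura libraries (4.66, and 5.60 without microglia replicate 3), overlapping with microglia through dura replicate 4. Of 13 dendritic cell markers, 4 rose and 4 fell. Kmo, an enzyme of tryptophan breakdown, rose (45.3 ± 8.53 against 0.154 ± 0.269 CPM, 8.14), with a ratio of 2180 (391 to 86000) on 1 microglial count without microglia replicate 3, and Fscn1 fell (87.8 ± 5.78 against 666 ± 73.6 CPM, -2.92). Astrocyte markers rose in 3 of 10 cases and fell in 1 (4 and 1 without microglia replicate 3): Gja1 was at 18.8 ± 2.21 against 1.98 ± 2.4 CPM (3.24, and 4.42 without microglia replicate 3), and the glutamate transporter Slc1a3 at 2.46, 2.09, 2.15 and 4.37 CPM in MHC II-low dura and 134, 98.1, 110.2 and 148 CPM in microglia (-5.47). Astrocyte markers summed to 41 to 53 CPM and 120.3 to 166 CPM, with a median log2 fold change near 0 whose sign changed with the library left out. Of 8 oligodendrocyte markers, 1 fell, Mag (13.5 ± 2.4 against 37.9 ± 2.74 CPM, -1.49). For the rarer cell types few markers could be tested, and some of the calls among them changed with the library left out: 1 neuron and 1 B cell marker rose, and 0 and 0 did without microglia replicate 3. Of 4 mast cell markers tested 2 rose, as did the 1 erythroid marker tested, with the same counts without microglia replicate 3. Neuron markers summed to 1.7 to 9.98 CPM in the dura libraries and 3.11 to 4.17 CPM in microglia, B cell markers to 32.2 to 39.5 CPM and 31.2 to 45.5 CPM, mast cell markers to 1.54 to 3.01 CPM and 0.198 to 7.16 CPM, and erythroid markers to 0.225 to 6.56 CPM and 0 to 0.555 CPM. No count was found in any dura library for 2 of the neuron, 2 of the B cell, 1 of the mast cell and 2 of the erythroid markers. The part of other cell types in the differences between the populations was not tested.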

How the data were processed

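RNA was sequenced from 5 macrophage populations of C57BL/6JRj mice, 4 libraries each. The authors deposited whole read counts per gene symbol for each library, per the labels. FastQC 0.11.4, Trimmomatic 0.38, TopHat2 2.1.0, SAMtools 0.1.18 and the mm10 build were named, per the submitters' processing notes. For the counter, its annotation, its strand setting and multiply mapping reads, details were not given in the sources used here. Rows that name no gene were left out of library sizes and tests, among them the no-feature row (6.61 to 8.24% in MHC II-low dura, 12 to 13.1% in microglia).

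From the counts, edgeR 4.0.16 (R 4.3.3, limma 3.58.1) was run with TMM factors, its filter on low counts (13960 of 24421 symbols kept) and robust quasi-likelihood F tests over all 20 libraries, with Benjamini-Hochberg adjustment over all genes kept. Genes with an adjusted p below 0.05 and a change of 2-fold or more were called. Standard errors of log2 fold changes are the log2 fold change divided by the root of F, and the ± after a CPM mean is the SD over libraries. Where 1 group had no counts, a fold bound was set against 3 counts summed over that group, and with 1 to 3 counts the ratio has an exact 95% interval for counting error only, since reads are not independent molecules. In the 8 libraries compared, 3 counts are 0.198 CPM or less. Each pair of replicates differed beyond sampling noise (chi-square per degree of freedom 22.5 to 93.7), so none was counted as a duplicate. In simulated data of 12985 genes, the fit called 50 of 50 genes changed 4-fold and made 12 false calls.

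Named genes are 29 key genes, the 15 largest changes in each direction, and up to 2 called genes per list and direction with a mean of at least 10 CPM. A gene outside this rule is marked in the text, and 2 genes that the rule names are not reported here. The members and lists were chosen with earlier results of these data known. Positions are from GENCODE M21 (GRCm38), which holds 23384 of the 24421 symbols, and promoters from RefSeq. Alternatives were each library left out, the 2 populations alone, RLE factors, DESeq2 1.42.0, other filters, thinning to 13383274 counts, other thresholds and the replicate number as a block.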

Additional observations from a re-analysis of the deposited data

Results flagged for a closer look

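In each population of 4 libraries, a level was marked where the highest or lowest library stood apart by more than Dixon's 95% critical value (the gap to its nearest neighbour divided by the whole range). Of 364 sets of 4 values tested, 50 were marked (13.7%), and microglia replicate 3 accounted for 19 of them. Chance marks about 1 in 20 sets of independent normal values, which these levels are not. Some genes were named through their high level in microglia replicate 3, and the list sums share genes with them. The share marked is therefore not a measure of excess over chance. The cause of these differences was not tested.

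MHC II-low dura replicate 1 was above the others for Ada (17.2 CPM against 12.4 to 12.6 CPM), Cd163 (1326 CPM against 1057 to 1063 CPM) and Ctsc (4097 CPM against 3823 to 3839 CPM) and below the others for Ccl3 (300.4 CPM against 421 to 439 CPM). MHC II-low dura replicate 2 was above the others for Col1a2 (75.6 CPM against 44.2 to 47.5 CPM), Csf2ra (188 CPM against 155 to 156 CPM), Stab1 (3499 CPM against 2736 to 2831 CPM), Tmem119 (166 CPM against 93.3 to 103 CPM) and the summed list of microglia markers (8103 CPM against 6956 to 7082 CPM) and below the others for Nrap (21.5 CPM against 41.1 to 43.2 CPM). MHC II-low dura replicate 3 was above the others for the summed list of neurons (9.98 CPM against 1.7 to 3.1 CPM) and the summed list of pericytes and smooth muscle (9.76 CPM against 4.72 to 5.27 CPM). MHC II-low dura replicate 4 was above the others for Mag (17 CPM against 12 to 12.8 CPM) and Slc1a3 (4.37 CPM against 2.09 to 2.46 CPM) and below the others for the summed list of oxidative phosphorylation (2299 CPM against 2453 to 2478 CPM).

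Microglia replicate 3 was above the others for Car12 (153 CPM against 0.627 to 6.25 CPM), Cd74 (146 CPM against 92 to 101 CPM), Col1a1 (19.2 CPM against 0.132 to 0.405 CPM), Col1a2 (30.1 CPM against 1.92 to 4.51 CPM), Enpp2 (9049 CPM against 15.5 to 316 CPM), F5 (107 CPM against 2.13 to 5.96 CPM), Folr1 (178 CPM against 0.689 to 8.45 CPM), Kcne2 (147 CPM against 0.877 to 3.24 CPM), Kcnj13 (268 CPM against 0.815 to 11.3 CPM), Kcnk1 (76.4 CPM against 0.689 to 2.66 CPM), Kl (538 CPM against 1 to 17.2 CPM), Slc4a5 (97.2 CPM against 0.501 to 3.37 CPM), Slco1c1 (145 CPM against 6.64 to 10 CPM), Trpm3 (125 CPM against 1.13 to 3.94 CPM), Ttr (9719.7 CPM against 45 to 338 CPM), the summed list of oxidative phosphorylation (2920.3 CPM against 1845 to 2016 CPM), the summed list of choroid plexus epithelium (21706 CPM against 72.1 to 753 CPM) and the summed list of osteoclasts and bone cells (50.8 CPM against 0.627 to 5.56 CPM) and below the others for H2-Oa (31.9 CPM against 40.2 to 41.5 CPM). Of the 16 single genes among them, 7 are on the list of choroid plexus epithelial markers.

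Microglia replicate 1 was above the others for Adamts1 (1249 CPM against 1086 to 1095 CPM), Cd163 (1.19 CPM against 0.0661 to 0.247 CPM), F13a1 (1.88 CPM against 0.185 to 0.463 CPM), Hspa1b (32.7 CPM against 13.9 to 16.8 CPM), Il1b (26.5 CPM against 14.6 to 16.2 CPM), Ms4a7 (1.38 CPM against 0.264 to 0.432 CPM) and Pf4 (1.07 CPM against 0.529 to 0.579 CPM) and below the others for Egr2 (58 CPM against 79.5 to 81.7 CPM). Microglia replicate 4 was above the others for Ccl24 (3.99 CPM against 2.01 to 2.25 CPM) and the summed list of neurons (4.17 CPM against 3.11 to 3.2 CPM). Microglia replicate 5 was above the others for C4b (28.5 CPM against 4.69 to 8.57 CPM), Ifitm3 (104 CPM against 15.6 to 17.5 CPM), Nlrc5 (45.7 CPM against 5 to 8.45 CPM), Rsad2 (22.5 CPM against 2.53 to 4.4 CPM) and the summed list of interferon response (1619 CPM against 222 to 273 CPM) and below the others for Egfl7 (5.02 CPM against 7.27 to 7.47 CPM).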

How the results depend on the processing

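With each of the 8 libraries left out in turn, the genes called higher in MHC II-low dura numbered 1743 to 2038 and those called lower 1598 to 1902, and without microglia replicate 3 the ranges were 1872 to 2030 and 1457 to 1587. A filter of 10 CPM in 4 libraries, which tests fewer genes, gave 1261 higher and 1055 lower (1325 and 909 without microglia replicate 3). A test against a 2-fold change gave 1276 and 1047 (1318 and 953), and dropping the minimum fold change gave 3860 and 3263 (3575 and 3247). Other settings stayed within 1.5 times: 1701 and 1408 with only the 2 populations, 1801 and 1905 with RLE factors, 1829 and 1921 in DESeq2, 1880 and 1942 with no filter, 1799 and 1770 at equal depth. RLE factors moved the median log2 fold change of all genes from 0.02 to -0.06.

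Replicate numbers are shared between the populations, but deviations of same-numbered libraries correlated at 0.007, 0.048 and -0.039, so the numbers were not taken to pair samples, and not every library correlated best with its own number. With the replicate block, 1856 genes were higher and 1593 lower (1865 and 1427 without microglia replicate 3). Microglia replicate 5 shares its number with no other library, so the block in effect takes that library out of the comparison.

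Over 16 alternatives, the 156 named genes kept direction and call in 2463 cases, lost the call in 28, reversed in 0 and gave no value in 5. Beside the losses given with the genes, the test against a 2-fold change ended the calls of Atf3, Ccl3, Ccrl2, Cd14, Cox5a, Csf2ra, Fdft1, Il10ra, Nlrc5 and Plaur, the replicate block that of Myh11, and the fit of only the 2 populations and that with no filter that of Nlrc5 (edgeR adjusted p = 0.113 and 0.0613). Calls near 2-fold depend on the threshold, and none of the losses among named genes came from thinning to equal depth. Levels near 0.2 CPM in microglia rest on few counts.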
